A study of Coregonus lavaretus with 13 samples.

Results

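In whitefish liver, 87 putative long non-coding RNA (lncRNA) transcripts without a match to known RNAs were present in control fish and gave no sequencing read at all in fish examined 6 and 9 days after exposure to microcystin-LR (MC-LR). They were selected from the contigs that the deposited tables list as differentially expressed on both day 6 and day 9 and do not list on day 1, by requiring 0 reads in each of the 6 MC-LR livers. These 87 transcripts are a subset of the 1618 contigs listed in this pattern and of the 4729 contigs listed on any day. The reads of the same fish chose them, so the contrast between control and exposed livers is given for them as a description and was not tested. Each fish is a separate juvenile whitefish (Coregonus lavaretus) of the Rutki-strain, and each liver is 1 poly(A)-selected library. The control group was 4 fish injected intraperitoneally with phosphate-buffered saline (PBS), the vehicle, and sampled on day 1. The exposed groups were 3 fish sampled on day 6 and 3 fish sampled on day 9, injected with MC-LR (100 μg per kg of body mass). A repeat injection fell between these days, so it reached the fish of day 9 alone. The same PBS fish served both days and each group had its own tank, so toxin, time since injection, tank and, on day 9, the repeated injection cannot be told apart.

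MC-LR is a cyclic peptide toxin of cyanobacteria that is taken up mainly by liver cells, where it inhibits the serine/threonine protein phosphatases PP1 and PP2A and injures the tissue. LncRNAs are transcripts without a recognised protein-coding frame. Many of them are poorly conserved between species, have low and tissue-restricted expression, and act, where a role is known, on transcription, on RNA processing or as competitors for microRNA binding. The whitefish transcripts were assembled de novo and carry only assembly names. None of their 4729 names was found in the RefSeq gene table of this species, but assembly names could not match gene names, and no sequence was compared. No gene name or role is therefore given to any of them, and the liver label could not be checked against marker genes. In an assembly name the DN and c numbers together mark a cluster of reads, g a Trinity gene within it, and i an isoform of that gene. In a bulk liver sample, fewer cells of one type and less RNA per cell cannot be told apart.

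The silent transcripts had low read counts in control liver. Their mean normalised read count over the 4 PBS livers, which is the number of reads divided by the size factor of the library, had a median of 16.3 and ranged from 9.96 to 90.1. Only 30 of the 87 reached 20 and only 3 reached 50. Counts were not divided by contig length, which was not analysed here, so a short contig can also have a low count. Where contigs are ranked or matched by abundance here, this count is meant. Summed over the 4 PBS livers, each transcript was covered by 39 to 352 reads, with a median of 64. In contrast, the 916 contigs of the same listing pattern that were also lower in MC-LR livers on both days but kept at least 1 read had a median of 110 normalised counts in PBS livers. Together the silent contigs made up 8.67% of the 1003 late lowered contigs and 0.219% of the normalised counts of those contigs in PBS livers. The 1003 were 62.0% of the 1618 contigs of this listing pattern.

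TRINITY_DN107487_c7_g1_i2 was the most abundant of them. It had 80, 87, 66 and 119 reads in PBS replicates 1 to 4, or 90.1 ± 18.8 normalised counts (SD, n = 4), and 0 in every exposed liver. TRINITY_DN78999_c3_g3_i3 followed with 59, 67, 70 and 85 reads, or 72.3 ± 8.92 normalised counts (SD, n = 4). In both transcripts every control liver lay far above 0 and the control livers differed little from each other. With 0 reads, a group of 3 exposed livers still allows up to 3 reads, at a confidence level of 95%. This limit covers counting error only and treats each read as an independent count. The 87 were chosen for their 0 reads, so the limit does not hold at that level for them. The fold bounds built on it are a description and take the PBS mean as exact. The libraries were paired-end, and reads were counted, not pairs. Where both reads of a pair map to a contig, the limit is too low and the fold bounds built on it are too high. The limit equals 0.896 normalised counts per liver on day 6 and 0.772 on day 9. Set against this limit, the lower bound on the loss of TRINITY_DN107487_c7_g1_i2 was 101-fold on day 6 and 131-fold on day 9. Here the livers were scaled with the size factors of each day's table. For TRINITY_DN78999_c3_g3_i3 the bounds were 80.7-fold and 105-fold. Over all 87 transcripts the lower bound ranged from 11.1-fold to 101-fold on day 6, with a median of 18.2-fold, and from 14.4-fold to 131-fold on day 9, with a median of 23.7-fold. Within a day the bounds rise with the control level alone, since all exposed livers are at 0. The higher bounds on day 9 come from the size factors and do not show a deeper loss. The bounds were not recomputed under another scaling. With libraries scaled by clean reads they would be lower, most on day 9, where the groups differed less in clean reads than in size factors. Clean reads were 50884809 to 57506983 in PBS livers and 51942679 to 56326270 in MC-LR livers of day 9. The size factors were 1.07 to 1.18 in MC-LR livers on day 6 and 1.24 to 1.37 on day 9. In PBS livers they were 0.923 to 1.02 in the table of day 6 and 0.822 to 0.920 in that of day 9.

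Other abundant members varied widely among the control fish. TRINITY_DN106138_c2_g1_i2 had 1 and 13 reads in PBS replicates 1 and 2 but 98 and 103 in replicates 3 and 4, or 55.2 ± 55.9 normalised counts (SD, n = 4). TRINITY_DN95517_c0_g1_i1 had 13, 69, 61 and 23 reads, or 42.8 ± 28.6 normalised counts. The control fish with the highest reads thus differed between these transcripts. TRINITY_DN72556_c0_g1_i2 had 49, 22, 18 and 77 reads, or 42.4 ± 26.7 normalised counts. TRINITY_DN107361_c4_g1_i3 had 5, 64, 48 and 21 reads, or 35.4 ± 27.1 normalised counts. TRINITY_DN94583_c6_g3_i1 had 31, 4, 38 and 64 reads, or 35.3 ± 24.2 normalised counts. In each of these the SD over the PBS livers was at least 0.63 of the mean. TRINITY_DN97456_c7_g1_i6 had 39, 47 and 35 reads in replicates 1 to 3 and 12 in replicate 4. TRINITY_DN98605_c3_g1_i2 had 20, 19 and 30 reads in replicates 1, 2 and 4 and 60 in replicate 3. The 10 most abundant members held 26.5% of the summed control level of the 87.

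**Figure D1:**
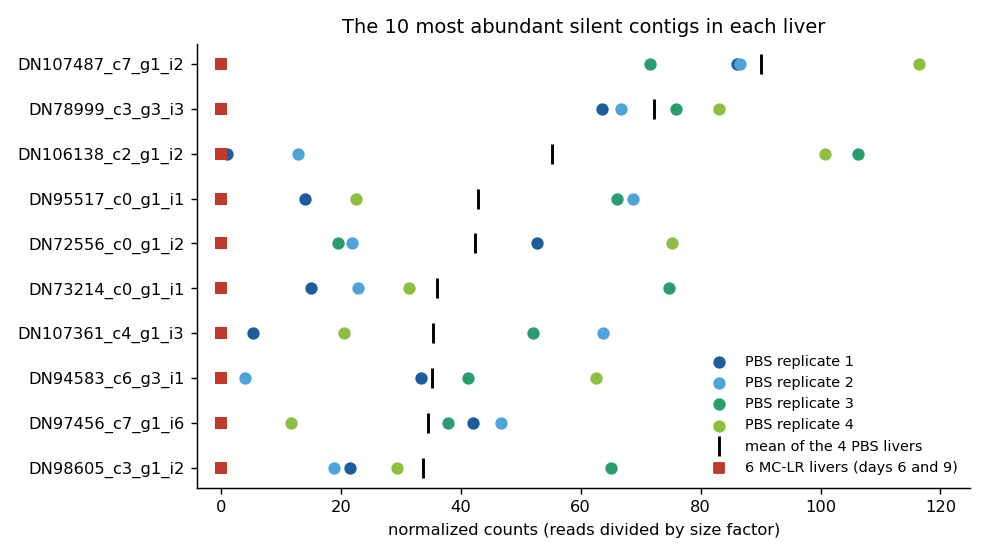
Normalised read counts (x axis, linear) of the 10 silent contigs with the highest control level, one row per contig, in 4 PBS livers (circles, one colour per fish), with their mean (black bar), and in 6 MC-LR livers of days 6 and 9 (red squares). All MC-LR livers sit at 0, while TRINITY_DN106138_c2_g1_i2 spreads from 1.08 to 106 over the control fish.

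At the lower end, TRINITY_DN48214_c0_g1_i1 had 8, 5, 8 and 18 reads in the PBS livers, or 9.96 ± 5.38 normalised counts (SD, n = 4). TRINITY_DN109549_c2_g1_i8 and TRINITY_DN102142_c5_g1_i14 stood at 10.2 ± 4.50 and 10.3 ± 4.99 normalised counts. For these transcripts the bound was only 11.1-fold to 11.5-fold on day 6, and residual expression below that bound was not detectable at this depth.

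Among the listed late lowered contigs, the silent ones sat at the low end of the control levels. Of the 90 contigs with 10 to 20 normalised counts in PBS livers, 56 were silent, or 62.2%. Between 20 and 50 normalised counts it was 27 of 253, or 10.7%, and between 50 and 100 it was 3 of 175, or 1.71%. None of the 160 contigs between 100 and 200 and none of the 324 at or above 200 was silent. The only contig under 10 was silent as well. The 0 reads behind these shares are those that chose the contigs, so the shares are a description and were not tested. The tables hold listed contigs alone, and near the lower limit of listing even the contigs that were not silent kept few reads: between 10 and 20 normalised counts the other 34 contigs had 1 to 10 reads over the 6 MC-LR livers, against 2 to 188 for the 172 others between 50 and 100. The share of silent contigs among transcripts that are not listed was not analysed here.

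**Figure D2:**
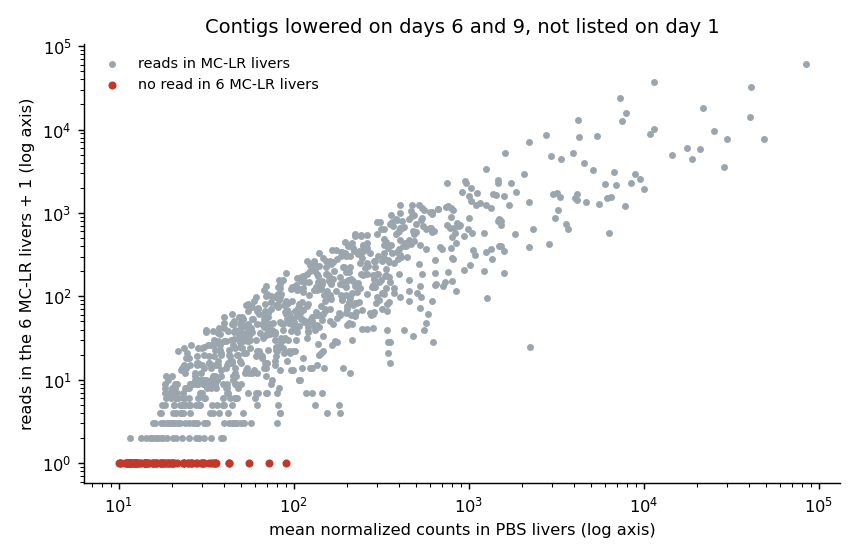
Each point is 1 of 1003 contigs of the pattern described (lower in MC-LR livers on both late days, absent from the list of day 1), with the mean normalised count in 4 PBS livers (x, log axis) against the reads summed over 6 MC-LR livers plus 1 (y, log axis). The 87 silent contigs (red) lie on the lowest line, between 9.96 and 90.1 normalised counts, and the other 916 (grey) reach 84475.

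**Figure D3:**
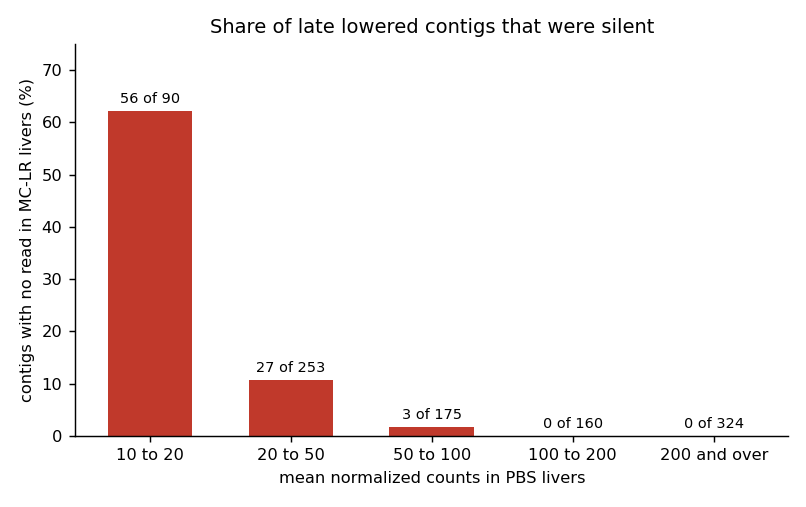
Share of late lowered contigs without a read in 6 MC-LR livers (y axis, percent), by their mean normalised count in 4 PBS livers (x axis), with the counts above each bar. The share is 62.2% in the lowest class shown and 0 in both classes from 100 upwards, and the single contig under 10 is not drawn.

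The count of silent contigs rested most on 1 exposed fish. Among the 1003 late lowered contigs, 202 had no read in the livers of day 6 and 107 had none in those of day 9. The 87 contigs silent on both days are 43.1% of the former and 81.3% of the latter, and both days were listed against the same PBS fish. In the whole tables, 15.4% of the contigs listed for day 6 and 7.94% of those listed for day 9 were without a read in the exposed livers of that day. Raised contigs, which cannot be at 0 there, are included in these shares. MC-LR replicates 1, 2 and 3 of day 6 were at 0 in 29.7%, 33.0% and 37.0% of the 1003 contigs. On day 9 the shares were 24.8% and 32.2% in replicates 1 and 2 and 15.7% in replicate 3. Without this replicate 3 of day 9, 138 contigs would meet the rule, whereas leaving out any other exposed liver gave 90 to 98.

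The contigs just outside the rule were close to the silent ones in control level. Exactly 1 read over the 6 MC-LR livers was found for 21 late lowered contigs, with 11.5 to 39.1 normalised counts in PBS livers and a median of 18.8. The read came from a liver of day 9 in 17 of them, 9 times from replicate 3, and from a liver of day 6 in 4. TRINITY_DN96359_c11_g1_i1 had 40, 37, 41 and 33 reads in the PBS livers and 1 read in MC-LR replicate 3 of day 9. TRINITY_DN88860_c2_g3_i6 had 28, 70, 36 and 15 reads and 1 read in the same exposed liver. Apart from this single read, both would rank among the more abundant silent contigs. The single read of TRINITY_DN89585_c0_g1_i14, at 33.6 normalised counts in PBS livers, lay in replicate 1 of day 9, and that of TRINITY_DN93559_c3_g1_i4, at 30.8, in replicate 2 of day 9. A further 36 late lowered contigs had 2 reads and 19 had 3. The 115 contigs silent on day 6 alone had 1 to 133 reads on day 9, with a median of 4, and the 20 silent on day 9 alone had 1 to 11 reads on day 6, with a median of 2.

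Among the 4 control fish, most silent contigs were more uneven than other late lowered contigs of like abundance. The coefficient of variation (CV, the SD over the mean) across PBS livers had a median of 0.59 over the 87 transcripts. Counting error alone would give 0.25 at their median depth if each read were an independent count. Reads were counted, not pairs, so counting error is larger where both reads of a pair mapped to a contig. Between 10 and 20 normalised counts the median CV was 0.58 for the 56 silent contigs and 0.37 for the 34 others. Between 20 and 50 it was 0.69 for 27 silent contigs and 0.44 for 226 others, while the 3 silent contigs above 50 had a median of 0.21 against 0.42 for 172 others. Both sets had been listed by a test that uses this same spread, so the difference is a description of listed contigs. In 47 of the 87 the highest control liver held at least 4 times the normalised count of the lowest, and in 21 it held at least 10 times as much. It held less than 2 times as much in 8. The 4 transcripts with a PBS liver at 0 fall in the first 2 counts by definition. These counts were not made for the other late lowered contigs, so they do not set the silent contigs apart.

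The steadiest transcripts with at least 20 normalised counts were TRINITY_DN78999_c3_g3_i3 and TRINITY_DN79765_c5_g5_i1, which had 28, 27, 32 and 27 reads and a CV of 0.13. TRINITY_DN96310_c4_g5_i1 had 24, 18, 19 and 18 reads and TRINITY_DN107487_c7_g1_i2 followed. In these 4 the control fish lay close together and all well above the exposed fish. At the other end, TRINITY_DN84495_c7_g1_i1 had 2, 79, 15 and 2 reads, and without PBS replicate 2 its mean would be 6.79 instead of 24.7 normalised counts. TRINITY_DN111051_c1_g2_i1 had 87, 21, 4 and 13 reads, and its mean was 32.9, or 12.6 without PBS replicate 1. TRINITY_DN84825_c2_g1_i15 had 66, 22, 6 and 4 reads, with a mean of 25.8, or 10.8 without PBS replicate 1. Each of these transcripts drew most of its control reads from 1 fish. Leaving out 1 PBS liver lowered the control mean by more than 1.5 times in 22 of the 87 transcripts, and the liver was replicate 3 in 9 of them, replicate 4 in 5, and replicate 1 and replicate 2 in 4 each. How often this occurs among the other late lowered contigs was not counted.

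In 83 of the 87 transcripts all 4 PBS livers had reads, so that control and exposed fish did not overlap, against 97.3% of all 1003 late lowered contigs with every PBS liver above every MC-LR liver on both days. At least 3 reads in every PBS liver were found for 75. The remaining 4 transcripts, named here after their values had been seen, had no read in 1 of the PBS livers. TRINITY_DN107670_c4_g1_i3 had 0, 10, 36 and 34 reads in PBS replicates 1 to 4. TRINITY_DN75590_c0_g1_i5 had 40, 0, 17 and 18 reads. A control fish without a read was therefore seen also for transcripts that were well covered in other control fish. TRINITY_DN107879_c0_g2_i7 had 31, 14, 28 and 0 reads, and TRINITY_DN109899_c1_g1_i5 had 28, 14, 30 and 0. In each of these 4 transcripts 1 control liver was at 0, as were the exposed livers.

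Summed over the 87 transcripts, PBS replicate 3 held 2208 normalised counts and replicates 1, 2 and 4 held 1661, 1681 and 1651, on average 1800 ± 272 (SD, n = 4). Replicate 3 was the highest control liver in 32 of the 87 (36.8%) and the lowest in 10, while replicate 4 was the lowest in 34. Among the 412 other late lowered contigs within the same range of control level, replicate 3 was the highest in 31.1%. With libraries scaled by their clean reads, the sum was 2156 in replicate 3 and 1582 to 1787 in the other PBS livers, so that replicate 3 was still the highest but stood less far apart.

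**Figure D4:**
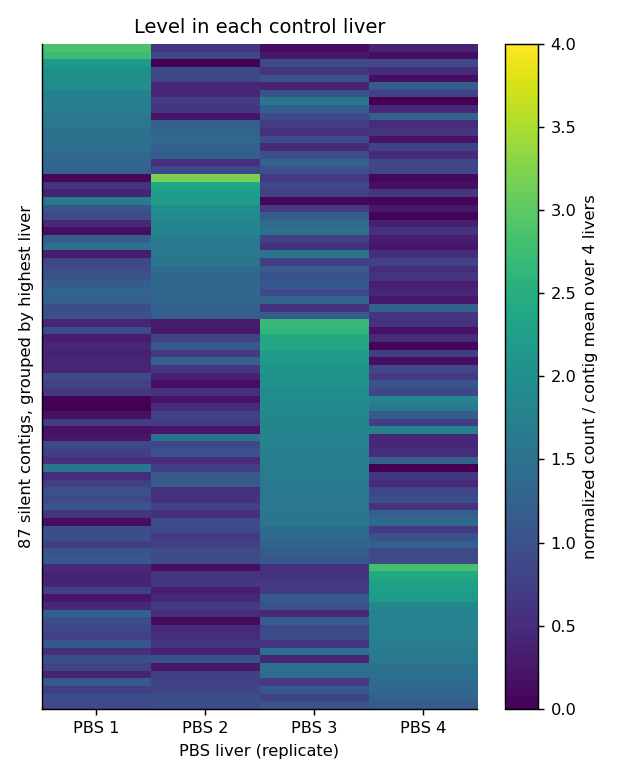
Normalised count of each of the 87 silent contigs (rows, grouped by the liver in which each was highest) in 4 PBS livers (columns), divided by the mean of the contig over these livers (colour, from 0 to 4). Every liver is the highest for some of the contigs, from 17 in replicate 1 to 32 in replicate 3.

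The silent contigs came from 86 Trinity genes, and only TRINITY_DN73214_c0_g1 contributed more than 1 of them. Its isoform TRINITY_DN73214_c0_g1_i1 had 14, 23, 69 and 32 reads in the PBS livers and TRINITY_DN73214_c0_g1_i2 had 9, 7, 59 and 14. Both were thus highest in replicate 3, without which their control means would be 23.1 instead of 36.0 and 10.1 instead of 23.6 normalised counts. Isoforms of 1 Trinity gene can share sequence and therefore reads, so they are not separate evidence. Isoform number 1 made up 48.3% of the silent contigs and 48.5% of the other late lowered contigs.

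For 12 of the 87 transcripts the tables list other contigs of the same Trinity gene, 16 in all. All 16 were lower in MC-LR livers than in PBS livers on each day on which they were listed, against 50.2%, 66.1% and 62.0% of all contigs listed for days 1, 6 and 9. Of the 15 that were listed for day 6, 8 had no read in the livers of that day, and of the 11 listed for day 9, 1 had none. The shares were 15.4% and 7.94% of all contigs listed for these days, which include raised contigs. Among listed contigs lower in MC-LR livers, 596 of 2555 had none on day 6 and 202 of 1577 on day 9. Isoforms of 12 genes are few and can share reads, so nothing is read from these counts about the isoforms as a group. TRINITY_DN94750_c6_g1_i4, an isoform of a gene with 1 silent contig, had 132, 166, 90 and 47 reads in the PBS livers, 0 in all livers of day 6, and 7, 2 and 8 in those of day 9. TRINITY_DN97456_c7_g1_i1 had 153, 168, 120 and 37 reads in the PBS livers and 10, 17 and 7 on day 6. In the latter gene the silent isoform TRINITY_DN97456_c7_g1_i6 was the one with fewer reads in PBS livers.

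Only 3 of the 16 related contigs were listed also for day 1, and they give the only view of these genes in MC-LR livers of that day. TRINITY_DN107487_c7_g1_i3, from the gene of the most abundant silent contig, had 18, 40, 53 and 31 reads in the PBS livers and 2, 5 and 0 in 3 livers taken 1 day after MC-LR. It had 0, 0 and 1 reads on day 6 and 0, 0 and 3 on day 9. TRINITY_DN107361_c4_g1_i5 had 46, 73, 63 and 33 reads in the PBS livers and 0, 0 and 6 on day 1. TRINITY_DN102142_c5_g1_i1 had 106, 245, 224 and 160 reads in the PBS livers, 15, 14 and 2 on day 1, and 1, 0 and 4 on day 6. In all 3 every exposed liver of day 1 lay below every control liver. Listing for day 1 rests on these same reads, so this separation was largely set by the choice of the contigs. How often it occurs among all contigs listed for day 1 was not counted, and nothing is read from it about the genes. The reads of the 87 silent contigs themselves on day 1 were not analysed here, and absence from the list of that day does not show that they were unchanged.

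In some Trinity genes the related and the silent contig were uneven in the same way among the control fish. The lowest PBS liver was the same in both for 10 of the 16 related contigs, which came from 7 of the 12 genes, and the highest was the same for 9, from 6 genes. In each case 5 of the matches came from only 2 genes, and replicate 4 alone was the lowest liver in 34 of the 87 silent contigs. Replicate 3 was the highest in 32. How often unrelated contigs match was not counted. In TRINITY_DN102142_c5_g1, TRINITY_DN107487_c7_g1 and TRINITY_DN97333_c9_g4 neither the lowest nor the highest liver matched. The genes described next were chosen after their values were seen. In TRINITY_DN84825_c2_g1 the silent isoform i15 and the isoforms i8, i11 and i13 were all highest in replicate 1 and lowest in replicate 4, with 47 and 15, 44 and 3, and 108 and 1 reads in these fish for the latter 3. In TRINITY_DN75590_c0_g1 the silent isoform i5 had no read in replicate 2, where isoforms i1 and i4 had 4 and 7 reads against 47 and 33 in replicate 1. In TRINITY_DN98439_c2_g5 replicate 4 had 1 read of the silent isoform i2 and 1 read of isoform i3, against 39 to 70 reads of i3 in the other fish. Shared reads and a shared transcript level cannot be told apart in these counts.

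**Figure D5:**
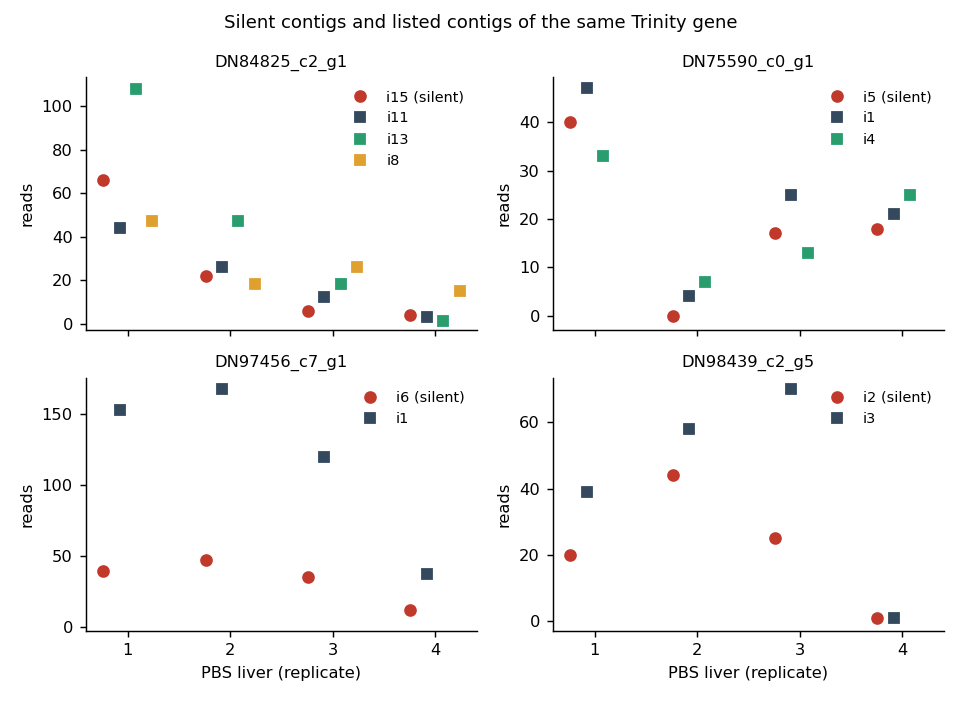
Reads in 4 PBS livers (x axis, replicates in no order) of silent contigs (red circles) and of other listed contigs of the same Trinity gene (squares), for 4 Trinity genes chosen after their values were seen. The isoforms of each of these genes are lowest in the same fish: replicate 2 in TRINITY_DN75590_c0_g1 and replicate 4 in the other 3.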

How the data were processed

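The authors trimmed reads with Trimmomatic 0.36, assembled contigs de novo with Trinity, removed redundant contigs and contigs of low abundance (RSEM), and kept as putative lncRNAs those without coding potential or database match. Reads per contig were counted with SAMtools idxstats, and the paper describes no use of strand. These counts were deposited unnormalised, beside a signal, the mean normalised count of DESeq2 1.28.0 over the 7 fish of a table. Only contigs with an adjusted p under the authors' threshold are listed: 1100, 3866 and 2543 for days 1, 6 and 9. The paper names a fold-change cutoff as well, which not all listed contigs meet. The late lowered TRINITY_DN102657_c2_g3_i1, for example, had a mean of 7260 normalised counts per PBS liver. In the MC-LR livers it had 23845 raw reads, a sum over 6 livers that is not on the same scale. Per liver, its mean over those 6 was lower than in PBS livers by less than the cutoff. The late lowered contigs were not filtered by this cutoff. The authors' fold changes, standard errors, statistics and p-values were not used, except that listing itself chose the contigs.

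Size factors were recovered from counts and base means by least squares (numpy 2.4.6, largest relative error 6.22e-15), a step checked on simulated counts. PBS levels use the factors of day 6 unless stated. PBS reads were the same in both tables for all 1618 contigs. Libraries held 50884809 to 57506983 clean reads, and the listed contigs are a part of each.

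The members and rules were chosen with earlier results of these data known. Contigs were named by rule: the 10 of highest PBS mean, the 4 steadiest and 4 most variable of mean at least 20, the members of the 2 Trinity genes with most members, members with a raised relative (none), the 4 most abundant with 1 MC-LR read, and the 3 of lowest PBS mean. No p-value is given, since the rule used the contrast. The TMM alternative used edgeR 4.0.16. Sequences of the contigs were not analysed here.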

Additional observations from a re-analysis of the deposited data

Results flagged for a closer look

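In 4 PBS livers, a value counts as standing apart where its gap to the nearest other value is, as a part of the whole range, above Dixon's 95% critical value, which chance gives for about 1 in 20 groups. The summed level of the 87 silent contigs did so in PBS replicate 3, at 2208 normalised counts, with a gap of 0.95 of the range. With libraries scaled by clean reads the gap was 0.64 of the range and no longer passed. Without the 2 silent contigs in which replicate 3 itself stood apart, the sums were 2123 in replicate 3 and 1628 to 1666 in the other livers. Of the named contigs, TRINITY_DN73214_c0_g1_i2 stood apart in PBS replicate 3, at 63.9 normalised counts, and did so under both scalings. With the size factors of day 6, any 1 of the 4 PBS livers stood apart, high or low, in 7 of all 87 contigs (8.05%). Among the 412 other late lowered contigs of like control level, any 1 liver did so in 31 (7.52%).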

How the results depend on the processing

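Of 87 silent contigs, 83 had reads in each PBS liver and 86 had at least 10 normalised counts, and 86 Trinity genes were counted. Allowing 1 read in all gave 108 contigs, and allowing 3 reads gave 163. Leaving out 1 MC-LR liver gave 90 to 138 contigs and shares of the late lowered contigs of 8.97% to 13.8%, the highest without replicate 3 of day 9. The median control level of 16.3 became 12.3 with TMM scaling of the listed contigs, which were all chosen as changed. Counted by DN number alone in place of Trinity gene, an alternative added after seeing the data, the related contigs numbered 26 in place of 16. Leaving out 1 PBS liver cannot change which contigs were at 0, so that the share of 8.67% found in each case says nothing of stability. It lowered the control mean by more than 1.5 times in 22 of the 87, a count not made for other contigs. No paired analysis was possible because each library came from a different fish, and the results come from no test. Counts of 0 do not depend on scaling, but the fold bounds do and were not recomputed under another scaling. At this depth 0 reads in 3 livers allow up to 3, for contigs not chosen by their reads. They allow more where both reads of a pair map to a contig, since reads were counted, not pairs.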

Other observations

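A shared DN number alone is a looser kinship than the Trinity gene or the read cluster. Counted by it, 24 of 26 related contigs were lower in MC-LR livers on each day listed. The other 2 were higher, both named after their values were seen. TRINITY_DN114660_c53_g1_i3 had 0, 3, 3 and 3 reads in the PBS livers, 199, 92 and 108 on day 6 and 106, 147 and 110 on day 9. TRINITY_DN114660_c41_g1_i1 of the same DN number was silent, with 2, 9, 20 and 14 reads in the PBS livers. TRINITY_DN97155_c5_g3_i1 had no read in any PBS liver and 183, 256 and 75 on day 1. TRINITY_DN97155_c1_g2_i1 of the same DN number was silent on the later days, with 30, 8, 17 and 15 reads in the PBS livers. Contigs that share only a DN number need not come from 1 locus.

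TRINITY_DN111051_c1_g3_i2, from the cluster of the silent TRINITY_DN111051_c1_g2_i1, had 104, 43, 10 and 13 reads in the PBS livers, 0 on day 6 and 2, 0 and 0 on day 9. Both contigs were highest in PBS replicate 1.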
